A study of Mus musculus with 49 samples.

Results

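The mature oligodendrocyte myelin genes are 9 genes chosen by name, Mbp, Mog, Mag, Mobp, Cnp, Cldn11, Mal, Opalin and Ermn, out of 45252 genes in a table of raw read counts from mouse neocortex. All 9 were present, and all 9 were among the 18220 genes with enough counts to be tested. Their levels are given as CPM, the count of a gene scaled to the size of its library (by the trimmed mean of M-values, TMM), in 49 mice, 1 library per mouse. Of the 9 genes, Cldn11 rose in rNLS8 mice and the other 8 did not pass the test in any comparison.

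The study asked whether immunization with TDP-43 peptides alters disease in rNLS8 mice. These are bigenic NEFH-tTA and tetO-hTDP43ΔNLS mice, in which withdrawal of doxycycline switches on human TDP-43 that lacks its nuclear localization signal. The NEFH promoter is that of the neurofilament heavy chain, so the transgene is driven in neurons and not in the oligodendrocytes described here. The samples were 17 monogenic mice given PBS (10 females and 7 males, ctrl-PBS), 10 bigenic mice given PBS (4 females and 6 males, TDP-PBS), 10 bigenic mice immunized with peptides 10 and 12 (6 females and 4 males, TDP-10+12) and 12 bigenic mice immunized with peptide 15 (5 females and 7 males, TDP-15). The monogenic mice carry only the tetO allele. All groups shared the mixed C57BL/6J x C3H/HeJ background, so the mice were not genetically identical. Every mouse received 5 injections from 8 weeks of age and 1 more after induction. Immunized mice were given 40 µg in total of peptides conjugated to ovalbumin each time, mixed with CpG oligonucleotide. The PBS groups were given PBS in place of the conjugates. Doxycycline was removed from the chow of all mice at 25.5 weeks and neocortex was taken at 28.5 weeks. Immunized monogenic mice were not analysed here, so the effect of immunization can be compared only among rNLS8 mice. Total counts were 17775738 to 21033608 per mouse, with a median of 19955601, and 3 counts correspond to 0.139 to 0.165 CPM. The lowest count of any member in any mouse was 141, for Opalin, so depth did not limit detection of these genes.

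Oligodendrocytes wrap axons of the central nervous system in myelin, a stack of compacted membrane that insulates the axon. Myelin basic protein glues the cytoplasmic faces of this membrane together, while adhesion molecules, claudins and raft proteins occupy its outer face, its inner face and its junctions. The genes for these proteins are switched on together when a precursor matures, under SOX10 and MYRF, and they serve as markers of mature oligodendrocytes.

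The stretches of DNA around the gene starts are shown for 4 members, Cldn11 because it was the member that rose, Mobp and Opalin because their windows held the most motif matches, and Mag because its window at the gene start held both of the motifs marked. RefSeq promoter windows of GRCm38.p6, from 250 bases before to 50 bases after the start, were matched by symbol for 8 of the 9 members. Capitals mark exact matches, on either strand, to the HMG box ACAAAG, which reads as CTTTGT on the opposite strand, or to the MYRF motif CTGGCAC, which then reads as GTGCCAG. The windows are chr3:31149670-31149969 on the plus strand for Cldn11, chr9:120149492-120149791 on the plus strand for Mobp, chr7:30914873-30915172 on the minus strand for Mag and chr19:41077064-41077363 on the minus strand for Opalin, each written 5′ to 3′ along the gene.
Cldn11: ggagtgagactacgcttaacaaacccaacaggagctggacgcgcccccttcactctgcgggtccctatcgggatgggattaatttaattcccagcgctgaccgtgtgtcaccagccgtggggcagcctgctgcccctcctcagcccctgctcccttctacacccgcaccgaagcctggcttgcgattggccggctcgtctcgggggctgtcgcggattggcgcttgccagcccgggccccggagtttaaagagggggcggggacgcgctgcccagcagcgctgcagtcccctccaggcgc
Mobp: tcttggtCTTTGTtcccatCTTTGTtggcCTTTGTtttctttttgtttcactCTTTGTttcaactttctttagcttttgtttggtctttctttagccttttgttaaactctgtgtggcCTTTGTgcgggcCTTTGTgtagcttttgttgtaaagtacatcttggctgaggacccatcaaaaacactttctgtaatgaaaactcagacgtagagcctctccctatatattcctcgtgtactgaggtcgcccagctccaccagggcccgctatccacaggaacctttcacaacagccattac
Mag: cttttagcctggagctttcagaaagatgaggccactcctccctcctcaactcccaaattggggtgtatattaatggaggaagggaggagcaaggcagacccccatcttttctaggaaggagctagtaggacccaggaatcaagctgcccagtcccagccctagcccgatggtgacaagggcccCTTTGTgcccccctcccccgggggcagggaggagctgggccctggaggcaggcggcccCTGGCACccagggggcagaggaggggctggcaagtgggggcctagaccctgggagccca
Opalin: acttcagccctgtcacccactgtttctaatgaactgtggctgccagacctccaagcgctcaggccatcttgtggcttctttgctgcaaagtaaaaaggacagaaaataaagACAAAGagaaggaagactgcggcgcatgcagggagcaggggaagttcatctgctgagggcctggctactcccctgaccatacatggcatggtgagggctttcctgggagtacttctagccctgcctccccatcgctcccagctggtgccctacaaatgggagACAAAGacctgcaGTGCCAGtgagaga

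The Mobp window held 6 matches to ACAAAG, a motif found in 18.7% of all 32851 windows. The Opalin window held 2 matches to ACAAAG and 1 to CTGGCAC, and the Mag window shown and the Cnp window each held 1 of both. The Cnp window is not at the annotated gene start. Mag also has a window that overlaps the one shown, with the same matches. Another Mag window, chr7:30914272-30914571, held none. CTGGCAC was found in 5.01% of all windows. Ermn held 1 match to the HMG box ACAATG (12.6% of all windows) and Mog 1 match to the MYRF motif CTGGTAC (2.24%). The windows of Cldn11 and Mal held no match to any of these 4 motifs, and none of the 8 members held the TATA box TATAAA (13.6%). Each motif was counted on its own, and matches to different motifs may overlap. These matches describe letters in a window and are not measured binding sites.

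In ctrl-PBS mice the 9 genes spanned a wide range of abundance. Per kilobase of merged exons, Mbp was the most abundant at 308.5 CPM per kb, followed by Mobp at 82.6, Cldn11 at 66.2, Mog at 56.9, Cnp at 42.9, Mal at 35.0, Mag at 33.5, Ermn at 10.4 and Opalin at 5.05. Along this order only 3 neighbouring pairs did not overlap between mice, Mbp above Mobp, Mag above Ermn, and Ermn above Opalin. Within single mice the order of neighbours held more widely, in all 17 ctrl-PBS mice for most pairs. The exceptions were Cldn11 above Mog (16 of 17 mice) and Mal above Mag (12 of 17). By CPM without length, Mbp ranked 16 among the 18220 genes tested. In ctrl-PBS mice Mbp made up 68.0% ± 0.848 (SD, n = 17) of the summed CPM of the 9 genes.

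The genes lie on 8 chromosomes of GRCm38.p6. Mbp is at chr18:82475091-82585637, Mog at chr17:37010740-37023398, Mag at chr7:30899175-30914922 and Mobp at chr9:120149742-120181488. Cnp is at chr11:100574909-100591875, Cldn11 at chr3:31149920-31164326 and Opalin at chr19:41061959-41077113. Mal (chr2:127633226-127656695) and Ermn (chr2:58045115-58052864) share chromosome 2. Cnp overlaps Dnajc7, and Mbp overlaps Rpl21-ps8 and Gm52337, so reads of these pairs could be split by the counting, whose strand setting is not given in the sources used here. The counts are per gene, so reads from exons and from untranslated regions were not separated.

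**Figure D1:**
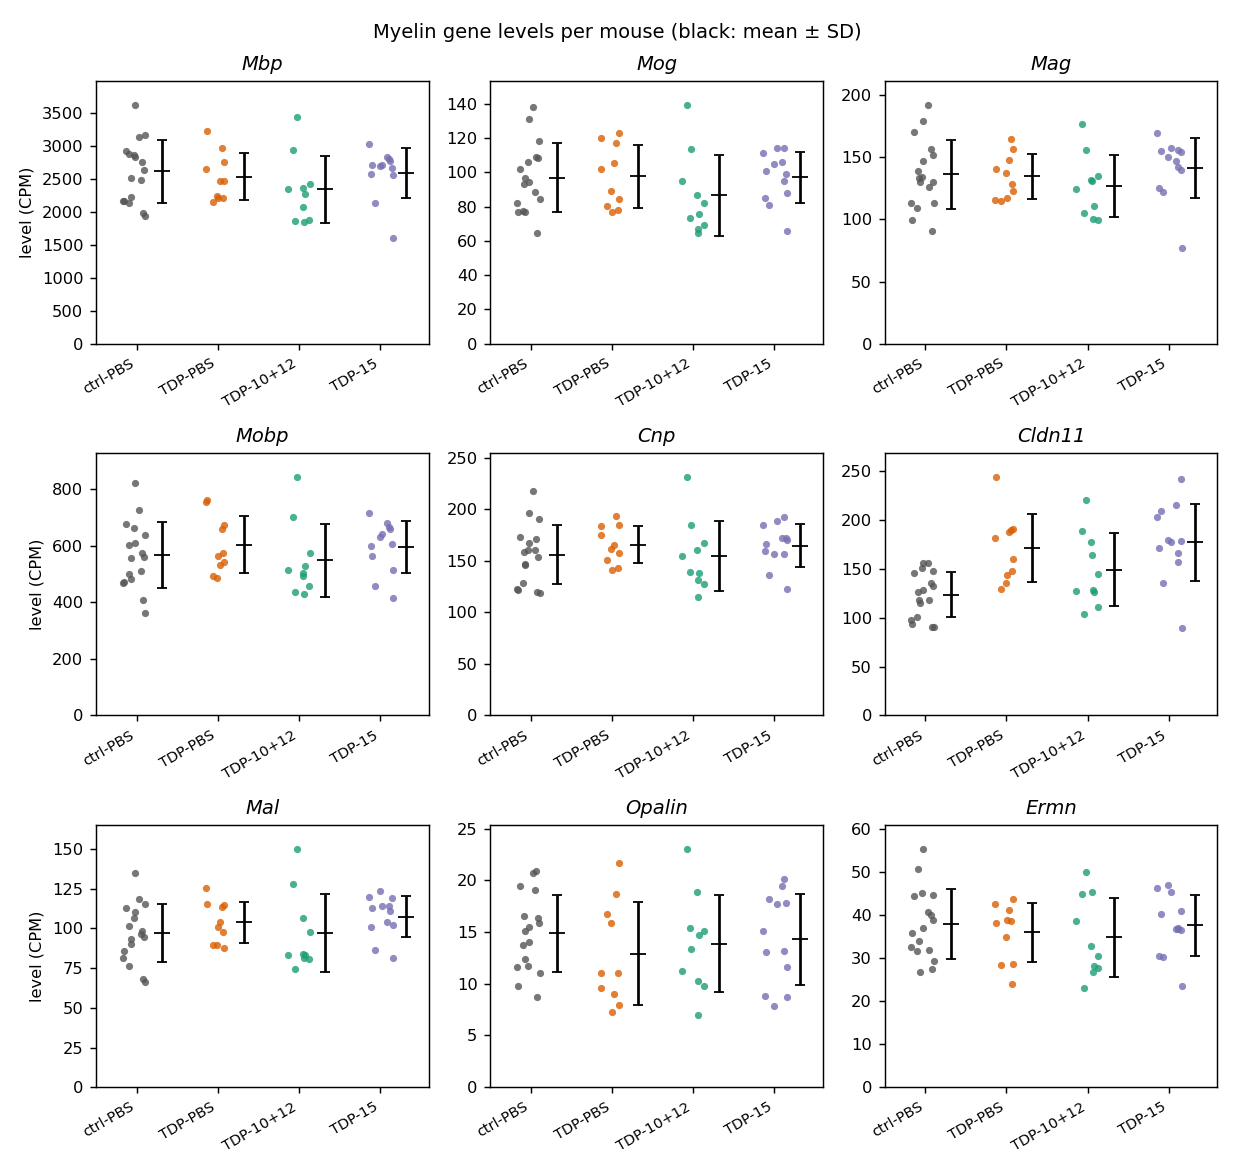
Level of each of the 9 myelin genes in CPM (vertical axis, starting at 0) in each mouse of the 4 groups (horizontal axis). Points are mice and black bars are mean ± SD. The ranges of the groups overlap for all 9 genes. For Cldn11, 20 of 32 rNLS8 mice lie above the highest ctrl-PBS mouse (156.4 CPM).

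Among the proteins of compact myelin, Mbp ranged from 1935 to 3623 CPM with a median of 2637 in ctrl-PBS, and from 2146 to 3220 (median 2470) in TDP-PBS. In TDP-10+12 it ranged from 1843 to 3440 (median 2302) and in TDP-15 from 1601 to 3031 (median 2708). All rNLS8 ranges overlapped that of ctrl-PBS, and the log2 fold change of all 32 rNLS8 mice against ctrl-PBS was -0.07 (SE 0.07, 95% interval -0.22 to 0.07, adjusted p = 0.422). Mobp, a small basic protein on the cytoplasmic side of central myelin, ranged from 363.1 to 819.2 CPM (median 559.8) in ctrl-PBS, 484.8 to 761.4 (569.1) in TDP-PBS, 430.2 to 843.0 (506.6) in TDP-10+12 and 416.1 to 714.2 (617.2) in TDP-15. These ranges overlapped as well, with a log2 fold change of 0.04 (adjusted p = 0.702). Mal, a raft protein of membrane trafficking, ranged from 66.2 to 135.0 CPM (median 96.7) in ctrl-PBS, 87.6 to 125.8 (102.4) in TDP-PBS, 74.3 to 150.4 (83.8) in TDP-10+12 and 81.7 to 123.7 (111.9) in TDP-15. Its log2 fold change was 0.08 (95% interval -0.07 to 0.23, adjusted p = 0.372).

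Mog lies on the outermost surface of the sheath and Mag on the innermost membrane facing the axon. Mog ranged from 64.6 to 138.3 CPM (median 94.7) in ctrl-PBS, 77.0 to 123.2 (95.6) in TDP-PBS, 64.4 to 139.5 (79.0) in TDP-10+12 and 65.8 to 114.6 (99.9) in TDP-15. Mag ranged from 91.0 to 192.3 CPM (median 133.6) in ctrl-PBS, 114.7 to 164.9 (133.0) in TDP-PBS, 99.2 to 176.9 (127.6) in TDP-10+12 and 77.3 to 169.3 (148.8) in TDP-15. The groups overlapped for both genes, and the log2 fold changes of all rNLS8 against ctrl-PBS were -0.05 for Mog (adjusted p = 0.638) and -0.02 for Mag (adjusted p = 0.828).

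Cnp, an enzyme and scaffold of the uncompacted myelin channels, ranged from 119.2 to 217.7 CPM (median 158.3) in ctrl-PBS, 141.4 to 193.1 (163.5) in TDP-PBS, 115.2 to 231.7 (147.0) in TDP-10+12 and 122.6 to 192.5 (168.3) in TDP-15. Ermn, a cytoskeletal protein of late oligodendrocytes, ranged from 26.8 to 55.4 CPM (median 37.0) in ctrl-PBS, 24.0 to 43.8 (38.4) in TDP-PBS, 23.0 to 49.96 (31.6) in TDP-10+12 and 23.5 to 46.9 (36.9) in TDP-15. Opalin, a membrane protein found in oligodendrocytes, ranged from 8.69 to 20.9 CPM (median 15.2) in ctrl-PBS, 7.26 to 21.7 (11.1) in TDP-PBS, 6.98 to 23.1 (14.0) in TDP-10+12 and 7.86 to 20.1 (14.1) in TDP-15. No group stood apart for any of these genes, and the log2 fold changes were 0.05 for Cnp (adjusted p = 0.542), -0.07 for Ermn (adjusted p = 0.496) and -0.12 for Opalin (adjusted p = 0.453). Opalin was the least precisely measured, with a 95% interval of -0.38 to 0.14. Its dispersion was larger than that of 84.0% of the genes tested, against 59.6% to 70.4% for the other 8 members.

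Cldn11 encodes claudin 11, which forms the tight junctions between the layers of central myelin. Its level ranged from 90.5 to 156.4 CPM (median 126.1) in ctrl-PBS, 129.3 to 244.5 (171.1) in TDP-PBS, 104.1 to 220.5 (136.8) in TDP-10+12 and 89.4 to 242.5 (177.8) in TDP-15. The groups overlapped, but 6 of 10 TDP-PBS, 4 of 10 TDP-10+12 and 10 of 12 TDP-15 mice lay above every ctrl-PBS mouse, and 1 TDP-15 mouse lay below all of them. Cldn11 was 1.34-fold higher in all rNLS8 mice (95% interval 1.18 to 1.52, log2 fold change 0.42, SE 0.09, adjusted p = 0.000111). The mean was 123.7 ± 23.1 CPM in ctrl-PBS (SD, n = 17) and 166.6 ± 38.3 in rNLS8 (SD, n = 32). In bulk tissue, a different number of cells of a type and a different amount of RNA per cell cannot be told apart.

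Cldn11 was thus the only member called in all rNLS8 against ctrl-PBS, 1 of 9. Of all genes tested, 54.2% were called in this comparison, 27.1% higher and 27% lower. The median log2 fold change of the 9 genes was -0.02, against 0.00 over all genes tested, and 18.6% of all genes changed by more than Cldn11 did. In TDP-PBS, where 43.5% of all genes were called, Cldn11 had a log2 fold change of 0.47 (SE 0.12, adjusted p = 0.000979). In TDP-15, where 46.9% of all genes were called, it was 0.52 (SE 0.11, adjusted p = 0.000127). In TDP-10+12, where 40.8% of all genes were called, it was 0.27 (SE 0.12, 95% interval 0.03 to 0.51) and did not pass the test (adjusted p = 0.0618, unadjusted p = 0.0265). These comparisons share the 17 ctrl-PBS mice. The TDP-10+12 value lies close to the threshold, since leaving out single mice moved its adjusted p between 0.0231 and 0.169.

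**Figure D2:**
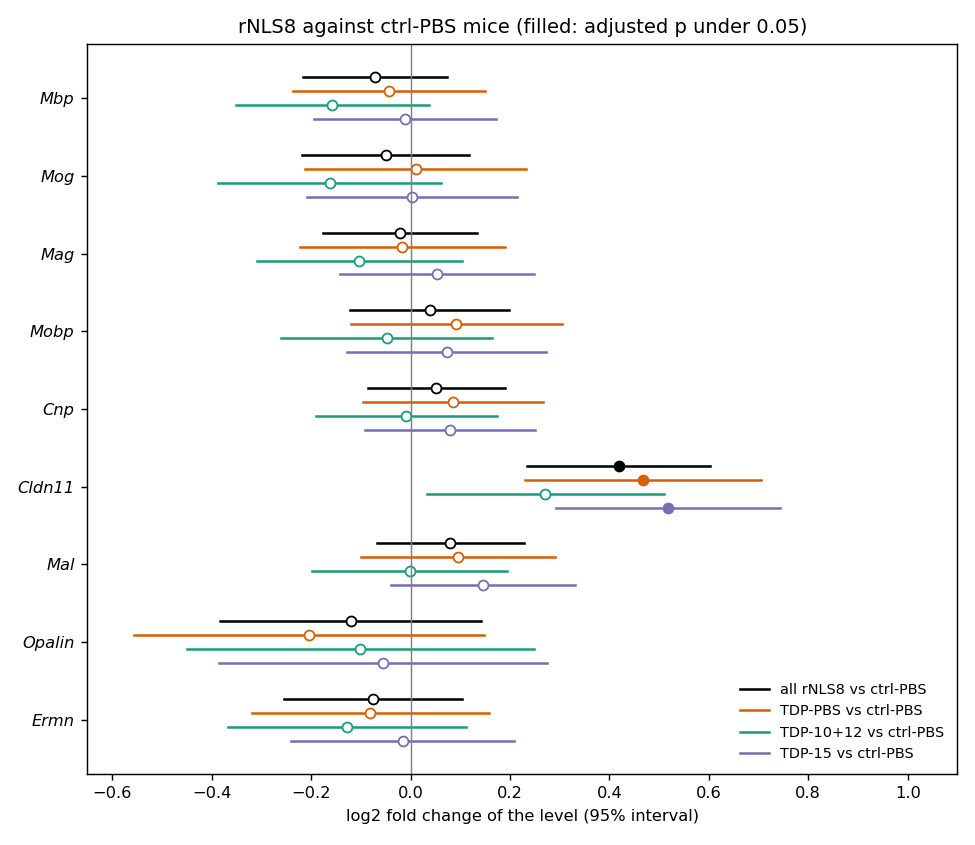
Log2 fold change (horizontal axis) of each myelin gene in all rNLS8 mice and in each rNLS8 group against ctrl-PBS, with 95% intervals as lines. Filled points have an adjusted p under 0.05 in edgeR's test, and only Cldn11 has any, at 0.42 in all rNLS8, 0.47 in TDP-PBS and 0.52 in TDP-15.

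No member passed the test between rNLS8 groups. Between TDP-10+12 and TDP-PBS, between TDP-15 and TDP-PBS and between TDP-10+12 and TDP-15, 0 of the 9 genes and 0% of all genes passed edgeR's test. At an unadjusted p under 0.05 there were 953, 552 and 1244 genes of all tested in these 3 comparisons, and 0 of the 9 members in each. DESeq2 called 0, 0 and 2 of all genes and limma-voom 2, 0 and 0, none of them a member. For Cldn11, the log2 difference was -0.20 between TDP-10+12 and TDP-PBS (95% interval -0.47 to 0.07), 0.05 between TDP-15 and TDP-PBS (-0.21 to 0.31) and -0.25 between TDP-10+12 and TDP-15 (-0.51 to 0.01, unadjusted p = 0.0599, adjusted p = 0.757). All 9 members had a negative log2 difference between TDP-10+12 and TDP-15, from -0.25 to -0.04, none past the test. Across the 8 members other than Cldn11, the 95% intervals of these 3 comparisons lay within -0.42 to 0.53.

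No member passed the test between the sexes. In the fit with group and sex, 0 of the 9 genes were called between females and males, against 0.0933% of all genes, which are 17 genes. The log2 differences of the members lay between -0.07 (Cnp) and 0.01 (Opalin), each with an adjusted p of 0.999 or more. In the 27 PBS-treated mice, the genotype by sex interaction called 0 members and 0% of the 17363 genes tested by edgeR, with 1097 genes at an unadjusted p under 0.05. DESeq2 and limma-voom were not run for the interaction. The interaction of Cldn11 was 0.32 (95% interval -0.10 to 0.73, adjusted p = 0.812), which leaves a wide range.

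The members varied together from mouse to mouse. After the mean of each group was subtracted from log2 CPM, Pearson's r of the 36 pairs lay between 0.12 and 0.94 with a median of 0.79 (n = 49), and Spearman's rho between 0.11 and 0.94. In permutation tests within groups, with Benjamini-Hochberg adjustment over the 36 pairs, 34 pairs had an adjusted p under 0.05 by either measure. Mbp and Mobp had the highest r, 0.94, followed by Mobp and Mal with 0.92. Without the 2 mice farthest from the median, the 36 values of r lay between 0.15 and 0.93. Opalin stood apart, with r of 0.12 to 0.60 to the other 8 genes, and its pairs with Ermn (r = 0.12, permutation adjusted p = 0.444) and Cldn11 (r = 0.22, permutation adjusted p = 0.159) were the 2 that did not pass. Among the 28 pairs without Opalin, r was 0.63 to 0.94. Cldn11 itself followed Mbp with r = 0.88 and the other members apart from Opalin with r of 0.75 to 0.83.

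**Figure D3:**
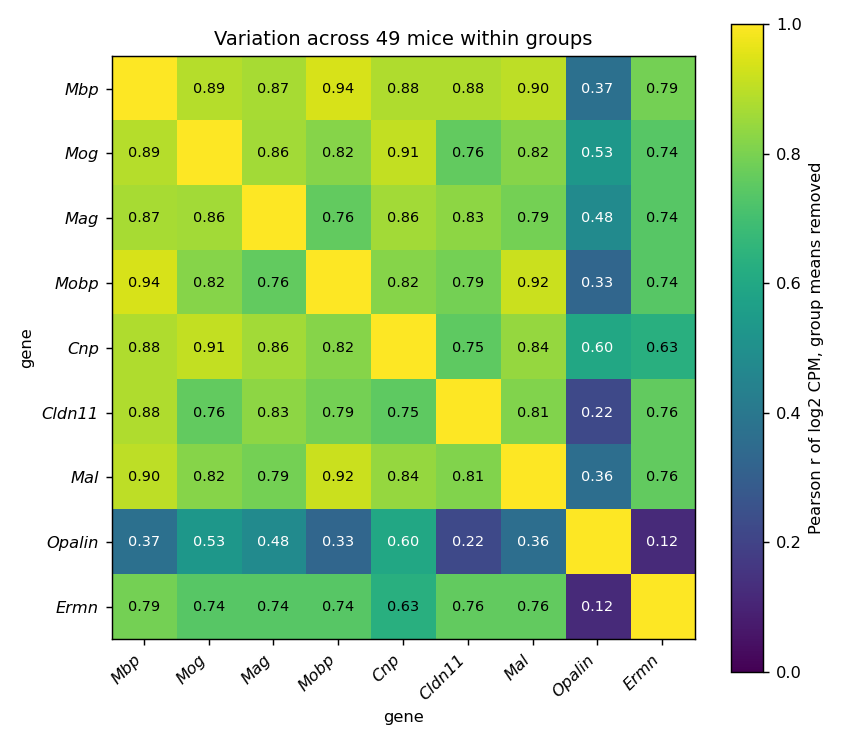
Pearson's r of log2 CPM across 49 mice, after the mean of each group was removed, for each pair of the 9 myelin genes (rows and columns), with the colour scale from 0 to 1. The row of Opalin is the lowest, at 0.12 to 0.60, while the other pairs lie between 0.63 and 0.94.

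Since Cldn11 moved with the other myelin genes from mouse to mouse, its ratio to each of them was compared between genotypes, a test chosen after the values of Cldn11 had been seen. The log2 ratio of Cldn11 to Mbp ranged from -4.54 to -4.25 in ctrl-PBS mice (median -4.41), from -4.05 to -3.72 in TDP-PBS (median -3.92), from -4.20 to -3.66 in TDP-10+12 (median -4.01) and from -4.16 to -3.40 in TDP-15 (median -3.91). All 32 rNLS8 mice lay above the highest ctrl-PBS mouse, including the TDP-15 mouse with the lowest Cldn11 level. The mean log2 ratio rose by 0.48, from -4.40 ± 0.09 to -3.92 ± 0.18 (SD), with a permutation p of 1e-05, the smallest that 100000 resamples can give. Over the 8 ratios of Cldn11 to another member, the difference lay between 0.32 (to Mal) and 0.56 (to Opalin). The permutation p was 1e-05 for 7 of them and 0.00057 for Opalin, and the adjusted p over the 8 was at most 0.00057. The number of rNLS8 mice above every ctrl-PBS mouse was 13 for the ratio to Opalin and 22 to 32 for the other 7.

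**Figure D4:**
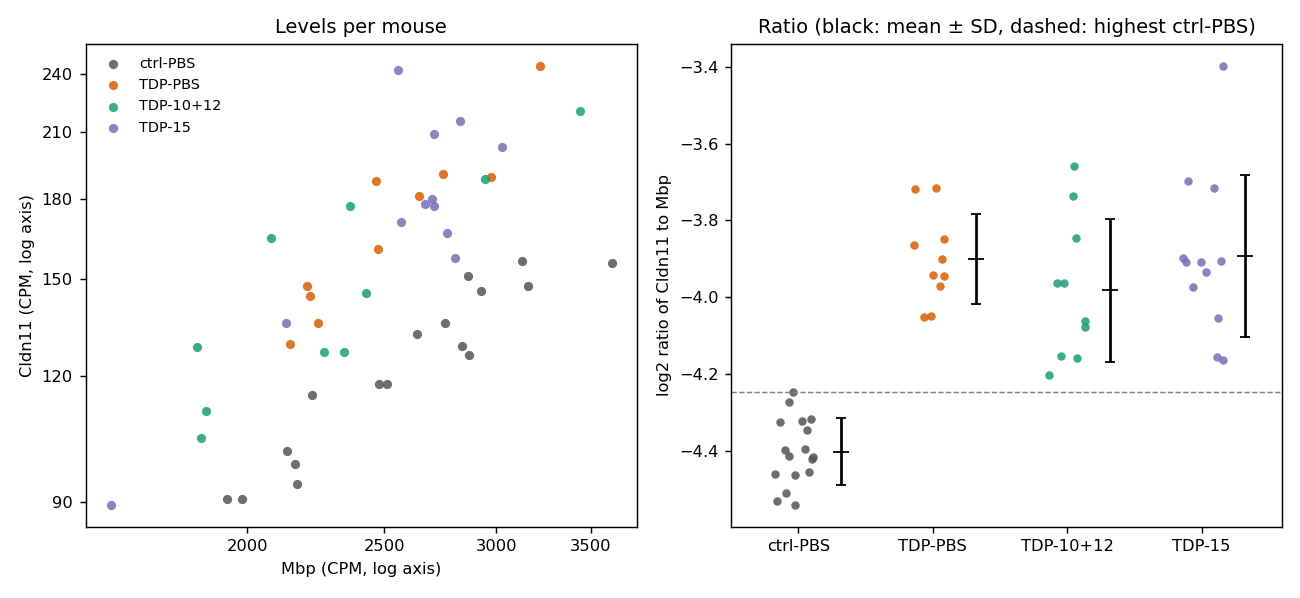
Left, Cldn11 against Mbp in CPM (both axes logarithmic), 1 point per mouse coloured by group. Right, the log2 ratio of Cldn11 to Mbp per mouse and group with mean ± SD, where all 32 rNLS8 mice lie above the dashed line at the highest ctrl-PBS mouse (-4.25).

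Smaller shifts within the set were seen without Cldn11. Of the 36 log2 ratios between 2 members, 14 differed between rNLS8 and ctrl-PBS (permutation test, adjusted over the 36), all 8 with Cldn11 and 6 of the 28 others. Mbp was lower relative to Mobp by -0.11 (permutation adjusted p = 0.00124), to Cnp by -0.13 (0.00435) and to Mal by -0.16 (0.00018) on the log2 scale. Mog was lower relative to Cnp by -0.11 (0.0202) and to Mal by -0.14 (0.0257), and Mal was higher relative to Ermn by 0.16 (0.0244). The share of Mbp in the summed CPM of the 9 genes was 65.8% ± 0.897 (SD, n = 32) in rNLS8 mice, with 17 of 32 below the lowest ctrl-PBS mouse, but this sum includes Cldn11. With Cldn11 left out of the sum, the share of Mbp was 70.3% ± 0.822 (SD, n = 17) in ctrl-PBS and 68.9% ± 1.02 (SD, n = 32) in rNLS8 mice, with 9 of 32 below. The choice of these ratios likewise followed a look at the data, and a ratio within a library does not say which of its genes changed.

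Of 16 other myelin sheath genes, 0 rose, 11 fell and 5 did not pass the test in all rNLS8 against ctrl-PBS, where 54.2% of all genes were called and 27% fell. Their median log2 fold change was -0.21, against 0.00 for all genes tested. None of the 16 was called in the direction of Cldn11, although Tspan2 (0.12) and Hapln2 (0.08), among those that did not pass, had positive values and were picked out with their values known. Tppp, a microtubule organizer of oligodendrocytes, ranged from 377 to 460 CPM in ctrl-PBS and from 261 to 406 in rNLS8, with 28 of 32 rNLS8 mice under the whole ctrl-PBS range. Its log2 fold change was -0.35 (SE 0.04, adjusted p = 1.6e-10). Tmem88b (-0.31), the connexin gene Gjc3 (-0.27) and the junction gene Jam3 (-0.21) fell as well. For this list and the lists that follow, counts from bulk tissue do not show which cells the RNA came from.

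Of 14 genes for myelin lipids and oligodendrocyte metabolism, 1 rose, 6 fell and 7 did not pass the test, with a median of -0.08. The share called is close to the 54.2% of all genes, so the count says little about this list. Ugt8a, which makes the galactolipids of myelin, fell from 25.3 ± 4.47 to 18.9 ± 4.0 CPM (SD), a log2 fold change of -0.42 (adjusted p = 2.02e-05). Qdpr (-0.32), which recycles tetrahydrobiopterin, Car2 (-0.23), a carbonic anhydrase, and Pex5l (-0.22) fell too. The gene that rose was Trf, for the iron carrier transferrin, from 146 ± 29.3 to 181 ± 41.9 CPM (SD, log2 fold change 0.31, adjusted p = 0.00545). It ranged from 111 to 208 CPM in ctrl-PBS and from 109 to 274 in rNLS8, with 6 of 32 rNLS8 mice above every ctrl-PBS mouse. Trf was not refitted without the mice high in choroid plexus markers that are described below. Trf falls outside the naming rule and was picked out with its values known.

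Of 10 oligodendrocyte transcription factors, Zfp488 rose (log2 fold change 0.60, 1.89 ± 0.511 to 2.88 ± 0.579 CPM, SD), Sox8 fell (-0.26) and 8 did not pass, with a median of 0.04. Sox10 and Myrf, the regulators of the myelin genes, were among the 8, at -0.09 (adjusted p = 0.252) and 0.14 (adjusted p = 0.142), and both were picked out with their values known. Of 10 genes of precursors and new oligodendrocytes, 3 rose (Lhfpl3 0.37, Neu4 0.19 and Sox6 0.17), 1 fell (Bcas1 -0.19) and 6 did not pass, with a median of 0.12. Over all genes, 54.2% were called in all rNLS8 against ctrl-PBS, 27.1% higher and 27% lower. The counts of these short lists thus say little about them. Of 7 disease-associated oligodendrocyte genes, 5 rose, 0 fell and 2 did not pass, where 27.1% of all genes rose and 27% fell. Their median was 1.42. The complement gene C4b ranged from 35.4 to 73.7 CPM in ctrl-PBS and from 158 to 801 in rNLS8, with no overlap and a log2 fold change of 2.71 (SE 0.14, adjusted p = 1.73e-22). Serpina3n (1.98), B2m (1.45) and Cdkn1a (1.14) rose as well. C4b and these 3 genes are also made by astrocytes, microglia or other cells. The 2 that did not pass were Klk6 (0.44, adjusted p = 0.0938) and Il33 (-0.02, adjusted p = 0.891), picked out with their values known. Of 5 astrocyte markers, Gfap rose in the same mice (log2 fold change 1.62), Gja1 (-0.36) and Slc1a3 (-0.11) fell, and Aldh1l1 (-0.09, adjusted p = 0.131) and Aqp4 (0.06, adjusted p = 0.499) did not pass the test.

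**Figure D5:**
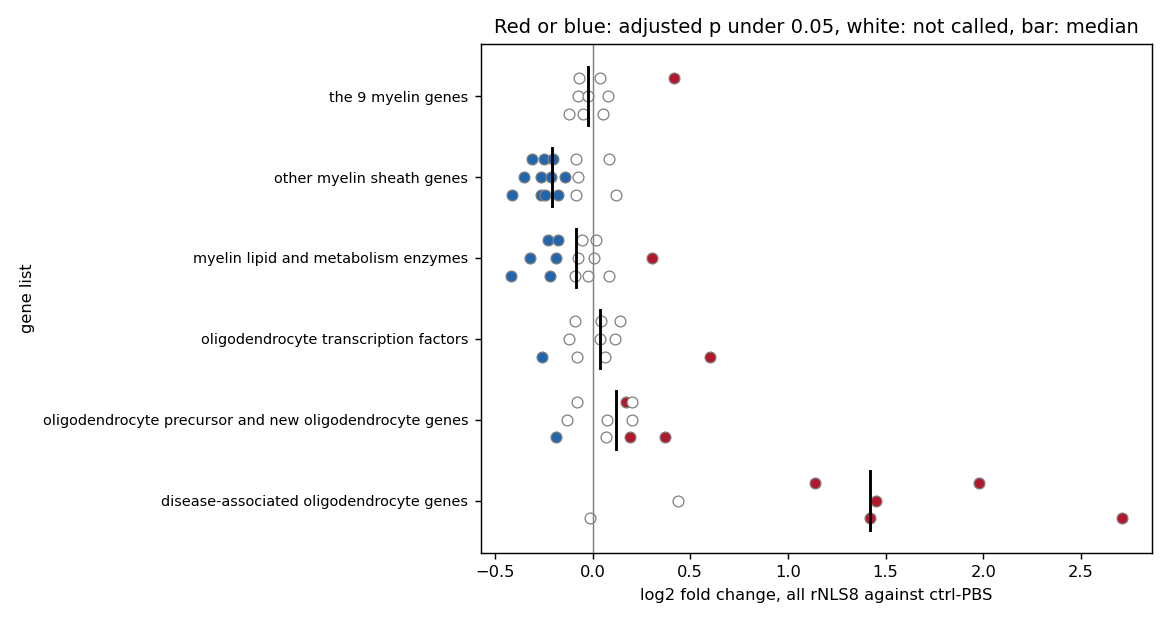
Log2 fold change of all rNLS8 mice against ctrl-PBS (horizontal axis) for each gene (point) of the 9 myelin genes and of 5 other oligodendrocyte lists (vertical axis). Red genes rose and blue genes fell at an adjusted p under 0.05, white genes did not pass, and the bar is the median of the list, -0.02 for the 9 genes, -0.21 for the other sheath genes and 1.42 for the disease-associated genes.

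The 10 genes outside the set whose pattern was most like the mean log2 CPM of the 9 members, across 49 mice with group means removed, had r of 0.839 to 0.895 as a description. Among them, in order, were Plekhh1, Bcas1, Septin4, Tmem63a, Gpr37, Rhog, Ppp1r14a, Prr18 and Tmem88b. Although they followed the members within groups, 8 of the 10 fell in rNLS8 mice, by -0.18 (Septin4) to -0.31 (Tmem88b) on the log2 scale. In all rNLS8 against ctrl-PBS, 27% of all genes tested fell. Rhog (0.09, adjusted p = 0.28) did not pass the test.

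The labelled tissue was checked against markers. All 6 markers of mature oligodendrocytes were detected and 0 of them were called, with a summed level of 929 to 1680 CPM in ctrl-PBS and 832 to 1540 in rNLS8. The summed level of 6 neuron markers was 5920 to 7640 CPM in ctrl-PBS and 4430 to 5530 in rNLS8, with all 32 rNLS8 mice below, and 4 of the 6 fell. Microglia markers (3 of 5 rose, 1 fell) summed to 148 to 178 CPM in ctrl-PBS and 153 to 267 in rNLS8. For these marker counts, the shares over all genes were 54.2% called, 27.1% higher and 27% lower. Of the Schwann cell markers, Pmp2, a gene of peripheral myelin, was at most 0.19 CPM in any mouse and at 0 in 42 of 49 mice, while Drp2 fell and Prx rose. CPM values are shares of a library, so the changes of these cell types move with every value above, and their part in the results was not tested.

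Markers of neighbouring tissue varied between mice. Choroid plexus markers summed to over 300 CPM in 6 mice, 5 of them rNLS8, and olfactory bulb markers to over 60 CPM in 5 mice, 3 of them rNLS8. Of the 4 choroid plexus markers, 3 rose in all rNLS8, 0 in TDP-PBS, 4 in TDP-10+12 and 1 in TDP-15 against ctrl-PBS. Over all genes tested, 27.1%, 21.9%, 20.8% and 23.6% rose in these comparisons. Why the markers differed between mice was not tested. Without the 6 mice Cldn11 was still called in all rNLS8, TDP-PBS and TDP-15, and Mbp passed the test in TDP-10+12 against ctrl-PBS (log2 fold change -0.25, adjusted p = 0.0436). Leptomeninges also express Cldn11, so 8 of their markers were added after its values had been seen. They summed to 75.9 to 164 CPM in ctrl-PBS and 114 to 283 in rNLS8, with 18 of 32 rNLS8 mice above every ctrl-PBS mouse. Of the 8 markers, 4 rose and 0 fell, where 27.1% of all genes rose and 27% fell. Within groups their sum had r = -0.11 with Cldn11 (Spearman's rho -0.18, permutation adjusted p = 0.642 and 0.41), and with this sum as a covariate the log2 fold change of Cldn11 in all rNLS8 was 0.45 (adjusted p = 0.000363). Since this sum itself differed between the genotypes, the fit cannot tell the sources of Cldn11 RNA apart. The part of the leptomeninges was not tested.

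Within groups, the level of the members moved with some markers of neighbouring cell types and regions, among 28 relations computed (n = 49, group means removed, permutation tests). The summed precursor markers were lower where the mean of the 9 genes was higher, with r = -0.40 (adjusted p = 0.0462) and rho = -0.41 (adjusted p = 0.0402), and r = -0.36 without the 2 outermost mice. Summed dentate gyrus markers were higher where it was higher, with r = 0.42 (adjusted p = 0.0399), rho = 0.46 (adjusted p = 0.0241) and r = 0.38 without the 2 mice. These 2 sums had r = -0.41 and 0.44 with Cldn11 (permutation adjusted p = 0.0399 and 0.0358). The dentate gyrus sum was mostly Prox1, at a mean of 17.6 CPM in ctrl-PBS, against 23.6 CPM for the whole sum. In all rNLS8 against ctrl-PBS, Prox1 rose (log2 fold change 0.19) while C1ql2, of the same list, fell (-0.61). Of the other markers, Dsp did not pass the test and Tdo2 had too few counts to be tested. Which marker the relation rests on was not tested. Thalamus markers had r = 0.37 with the mean of the 9 (permutation adjusted p = 0.0469), but rho = 0.30 did not pass (adjusted p = 0.159). Microglia markers had r = 0.41 with Cldn11 (permutation adjusted p = 0.0469), which was 0.19 without 2 mice, and rho = 0.28 did not pass (adjusted p = 0.194). Total counts had r = 0.01 with the mean of the 9 genes (permutation adjusted p = 0.965). What these relations come from was not tested.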

How the data were processed

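Neocortical RNA (about 30 mg of tissue per mouse) was sequenced as 100 bp paired-end reads. The authors aligned the reads to GRCm38.p6, and the deposited table holds raw counts for each gene in each mouse. The submitters' processing notes name HISAT, HISAT2, Bowtie, Bowtie2, RSEM and build mm10. The role of each, the annotation and the strand setting are not given in the sources used here. The values are whole numbers and 6073 of 45252 genes have no count.

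Genes with few counts were removed with filterByExpr by group (minimum count 10, minimum total 15), libraries were scaled by TMM (factors 0.929 to 1.06) and all 49 mice were fitted without covariates by glmQLFit and glmQLFTest (edgeR 4.0.16, R 4.3.3), two-sided, with an adjusted p under 0.05 as the threshold over all genes tested. Standard errors were derived from the F statistic. The common dispersion was 0.0263. The interaction was fitted in the 27 PBS-treated mice. Permutation tests used 100000 resamples and were two-sided. Levels per kilobase used merged exons of GENCODE M21, and positions and promoter windows were from RefSeq. Mice were grouped by their labels, each mouse is a separate animal, and floors of 3 counts cover counting error only. The count test was tested on simulated data. Alternatives used DESeq2 1.42.0, limma 3.58.1 and sva 3.50.0. Figures were drawn with matplotlib 3.10.9.

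The members and lists were chosen with earlier results of these data known. Named were all 9 members, up to 4 genes per list with the smallest adjusted p, the 10 genes most like the members, and markers where needed. The leptomeningeal list, the ratios, and the alternatives with leptomeningeal markers as a covariate or without mice high in choroid plexus or olfactory bulb markers were chosen after the data had been seen. Some genes, and the results that need them, are not reported here.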

Additional observations from a re-analysis of the deposited data

How the results depend on the processing

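Of 88 recomputed numbers of members called, 85 stayed within 1.5 times the reported number. The other 3 were as follows, and their cause was not tested. In TDP-10+12 against ctrl-PBS, 1 member was called in place of 0 with at least 10 counts in every mouse (Cldn11, adjusted p = 0.0487), with a fit of those 2 groups alone (Cldn11, adjusted p = 0.0479) and without the mice high in choroid plexus markers (Mbp, adjusted p = 0.0436). Leaving out each mouse in turn gave 0 to 1 members in this comparison, with Cldn11 called in 11 of 49 refits, those without ctrl-PBS mice 41, 84, 99 or 110, TDP-10+12 mice 47, 242, 277, 313 or 337, TDP-PBS mouse 196 or TDP-15 mouse 184. In the other 6 group comparisons the number stayed at 1 or 0 in all 49 refits.

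Of 108 recomputed log2 fold changes of members in all rNLS8, 103 kept their direction and call. With the leptomeningeal marker sum as a covariate, Mog (0.0558), Mag (0.0859), Opalin (0.0363) and Ermn (0.0543) changed sign, as did Mobp (-0.0292) without the mice high in choroid plexus markers. With each mouse left out, Mag lay between -0.0464 and 0.0173. Cldn11 in all rNLS8 stayed past the threshold, at 0.39 to 0.45 (adjusted p 3.37e-05 to 0.000853) under 12 other alternatives and 0.40 to 0.45 (adjusted p 1.41e-05 to 0.000291) with each mouse left out.

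No paired analysis was possible because the labels give each mouse its own number and name no litter or other block that mice of different groups share.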
